A study of Mus musculus with 18 samples.

Results

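The lungs of mice of 2 arrestin lines were compared for how differently they responded to chronic hypoxia. The comparison used 12 of the 18 libraries of the study, taken by their titles as 4 groups of 3: B2H and B2N, labelled beta-arrestin 2 -/- and kept in hypoxia or normoxia, and B1H and B1N, labelled beta-arrestin 1 -/- and kept in hypoxia or normoxia. No wild type library entered it, so it asks how the lines differ from each other and not how either differs from normal mice. All mice were male, of the C57BL/6 strain, entered the experiment at 8 to 12 weeks and are labelled 12 to 16 weeks old. Hypoxia was 4 weeks at the air pressure of 18000 feet, with a PAO2 of about 70 mmHg, and normoxia was 4 weeks at normal altitude, with a PAO2 of about 150 mmHg. Whole lung RNA was sequenced after poly(A) selection, with replicates numbered 0 to 2.

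Once a G protein-coupled receptor is active, β-arrestins attach to it, stop it from driving its G protein and carry it into the cell. They also act as scaffolds for other signalling proteins. Receptors of this class set the tone of pulmonary vessels, among them those for endothelin, angiotensin, catecholamines and thromboxane. Chronic hypoxia constricts and remodels pulmonary arteries, changes the extracellular matrix and raises red cell mass, and hypoxia-inducible transcription factors (HIF) carry much of the response of transcripts to low oxygen. In a whole organ, fewer cells of a type and less RNA per cell cannot be told apart.

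Arrb1, which encodes β-arrestin 1 and lies on chromosome 7 from 99535486 to 99606771 of mm10, was low in the B1 line. It had 371, 364 and 359 CPM in B2H, against 262, 287 and 319 in B2N. In B1, Arrb1 had 83.7, 88.8 and 90.7 CPM in B1H, against 87.5, 118 and 107 in B1N (CPM, counts scaled to the size of the library). The B2 libraries were above all B1 libraries, by 2.05 ± 0.11 (adjusted p = 3.71e-06) on the log2 scale in hypoxia and 1.48 ± 0.11 (adjusted p = 6.47e-05) in normoxia (± SE here and below). Arrb2, which encodes β-arrestin 2 and lies on chromosome 11 from 70432580 to 70440828, had 30.7, 37.8 and 34.6 CPM in B2H, against 46.6, 38.9 and 36.6 in B2N. In B1, Arrb2 had 39.2, 37.8 and 73.1 CPM in B1H, against 31.1, 35.9 and 33.1 in B1N. Arrb2 was therefore not low in the libraries labelled beta-arrestin 2 -/-, with a difference from B1 of -0.54 ± 0.22 (adjusted p = 0.224) in hypoxia and 0.28 ± 0.22 (adjusted p = 0.480) in normoxia. Which exons the fragments fell on was not tested, since they are summed per gene, and B2 below means only that a library carries this label. The hypoxia responses of Arrb1 and Arrb2 themselves did not differ between lines at the threshold used, at 0.58 ± 0.16 (adjusted p = 0.0781) and -0.82 ± 0.31 (adjusted p = 0.149).

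Library totals ran from 16806806 to 25980876 fragments, lowest in B1H replicate 2 and next lowest in B2N replicate 0 (18250814), and 16817 to 17298 genes had a fragment in each library. B1H replicate 2 stood apart from the other libraries of its group. B2N replicate 0 had the highest scores of cardiac muscle (2.31), airway secretory (1.83) and adipocyte genes (1.18), and B1H replicate 0 the lowest (-2.16, -1.24 and -1.70), given as mean log2 CPM over each list minus its mean over the 12 libraries. The 28 cardiac muscle markers, none of which was at 0 in every library, summed to 2388 to 4279 CPM in B2H, 695 to 9020 in B2N, 391 to 3093 in B1H and 1018 to 2904 in B1N. Since the labels name no animals, p-values here measure only the spread between libraries, which may be technical.

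The response to hypoxia differed between the lines for 244 of 15250 genes tested (1.6%), of which 136 (0.892%) had a difference above 0 and 108 (0.708%) a difference below 0. The difference is the log2 fold change of B2H over B2N minus the log2 fold change of B1H over B1N, so a value above 0 means a level that went further up, or less far down, in hypoxia in B2. A gene is called where the Benjamini-Hochberg adjusted p of edgeR's quasi-likelihood test over all tested genes is at or under 0.05. Within lines, hypoxia changed 2862 genes in B2 (18.8%), with 1471 higher (9.65%) and 1391 lower (9.12%). In B1 it changed 414 genes (2.71%), with 269 higher (1.76%) and 145 lower (0.951%). The absolute response had a median of 0.279 in B2 and 0.186 in B1 over all genes. Both responses were called for 203 genes, which is 7.09% of the B2 calls and 49.0% of the B1 calls, and 129 of them were higher in both lines, 62 lower in both and 12 opposite. Across all tested genes, which are not independent, the responses of the lines had a Pearson correlation of 0.187 and a Spearman correlation of 0.097, with no library in common.

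For 190 of the 244 genes (77.9%) the B2 response alone was called, with 104 higher and 86 lower in hypoxia. In 152 of these 190 the B1 response had the other sign without being called. Choosing genes by the difference favours such signs, and their share among other genes was not counted. Over all tested genes 17.4% had a call in B2 alone. For 30 genes (12.3%, against 1.38% of all genes) the B1 response alone was called, with 14 higher and 16 lower in hypoxia. Opposite responses were called for 12 genes, responses in the same direction for 6, and neither response for 6. Among all tested genes these classes held 12 (0.079%), 191 (1.25%) and 12177 (79.8%), so every gene with opposite called responses had a called difference. The lines themselves differed for 492 genes in hypoxia (3.23%) and for 197 in normoxia (1.29%). Of the 244 genes, 140 differed between lines in hypoxia, 53 in normoxia and 8 in both. Their absolute difference between lines had a median of 0.666 in hypoxia and 0.446 in normoxia, against 0.199 and 0.206 over all tested genes. The contrast that selected the 244 is made of these same line differences. B2H and B2N libraries did not overlap for 226 of the 244 genes, B1H and B1N libraries did not for 121, and there was no overlap in either line for 103. The 244 genes were selected on these same libraries, which favours such separation. Its share over all tested genes was not counted.

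**Figure D1:**
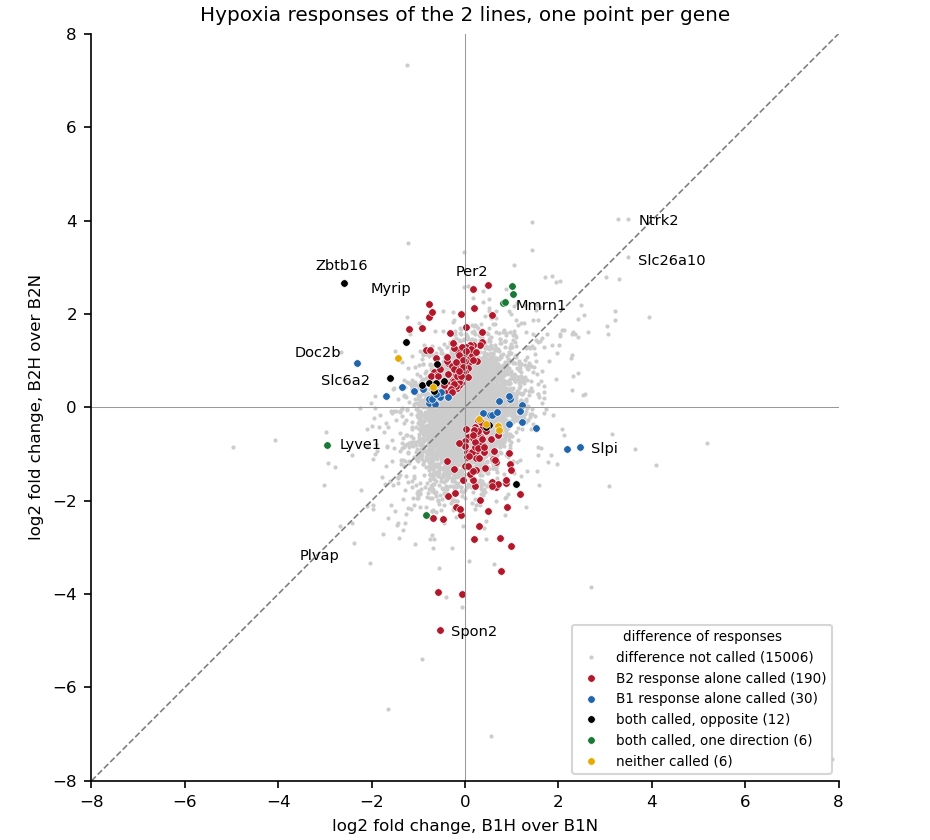
Each point is 1 of 15250 tested genes, with the log2 fold change of B2H over B2N on the vertical axis and of B1H over B1N on the horizontal axis; the dashed line marks equal responses and colours give the classes of the 244 genes with a called difference. Of the 190 genes called in B2 alone, 152 lie at the upper left or lower right, as do the 12 genes with opposite called responses. Choosing genes by the difference favours these positions.

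How many genes were called depended on single libraries. With each library left out in turn, 28 (without B1N replicate 1) to 1277 (without B1H replicate 0) differences were called, with 603 without B1H replicate 2 and 154 or fewer without any other library, and 514 without B1H replicate 2 and B2N replicate 0 together, a setting chosen after seeing the data. All 244 genes kept the sign of their difference in each of these fits. Called in all 12 leave-one-out fits were 25 genes, 12 with a difference above 0 and 13 below. They are Lyve1, Zbtb16, Mmrn1, Lrrc32, Slc6a2, Fam13a, Myrip, Fgfr3, Coro2a, Xdh, Map3k6 and Reln above 0, and Adamts17, Spon2, S100a14, Gyg, Eln, Glipr2, Loxl1, Fam167b, Irf5, Vstm5, Syn2, Gja5 and H2-Ob below 0.

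**Figure D2:**
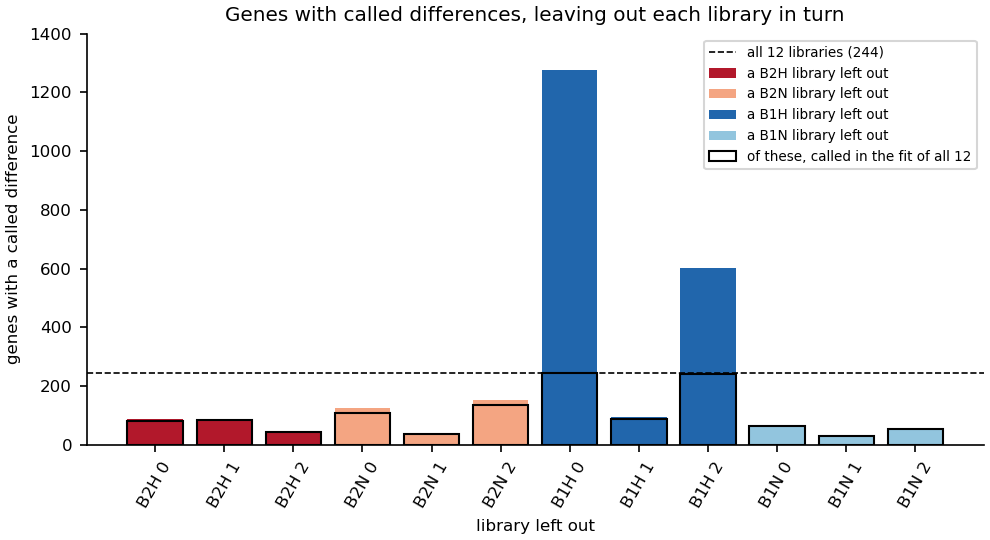
Bars give the number of genes with a called difference when the library named on the axis was left out, the outlined part counts genes that are also called with all 12 libraries, and the dashed line marks 244. The counts run from 28 without B1N replicate 1 to 1277 without B1H replicate 0.

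Opposite responses were led by Zbtb16, the zinc finger repressor PLZF, a transcript that glucocorticoids induce. Zbtb16 had 219, 172 and 185 CPM in B2H, against 29.8, 18.8 and 42.1 in B2N. In B1, Zbtb16 had 72.1, 27.1 and 25.9 CPM in B1H, against 202, 296 and 257 in B1N. Hypoxia libraries were all above normoxia libraries in B2 and all below them in B1. Zbtb16 rose by 2.66 ± 0.40 (adjusted p = 0.00184) in B2 and fell by 2.59 ± 0.39 (adjusted p = 0.00794) in B1, which gave the highest difference of any called gene above the minimum level for named genes, 5.25 ± 0.56 (adjusted p = 0.00378). The lines were also apart in normoxia, where Zbtb16 was lower in B2N than in B1N by a log2 change of -3.05 ± 0.40 (adjusted p = 0.00453), and in hypoxia the order was turned round (2.20 ± 0.39 (adjusted p = 0.0140)).

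Slc6a2, the noradrenaline transporter, which in the lung clears noradrenaline into endothelium, had 151, 198 and 149 CPM in B2H, against 119.8, 104 and 101 in B2N. In B1, Slc6a2 had 49.9, 28.02 and 42.4 CPM in B1H, against 109, 135 and 121 in B1N. Its B1H libraries were the lowest of all 12, and every B2H library was above every B2N library. Slc6a2 rose by 0.62 ± 0.19 (adjusted p = 0.0397) in B2 and fell by 1.60 ± 0.19 (adjusted p = 0.00281) in B1, a difference of 2.22 ± 0.27 (adjusted p = 0.00525). The lines were close in normoxia, at -0.17 ± 0.19 (adjusted p = 0.614), and apart in hypoxia, at 2.05 ± 0.19 (adjusted p = 0.000247).

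Map3k6, a stress-activated MAP kinase kinase kinase, had 135, 131 and 135 CPM in B2H, against 51.9, 44.6 and 56.8 in B2N. In B1, Map3k6 had 77.9, 31.3 and 38.1 CPM in B1H, against 95.7, 134 and 123 in B1N. It rose by 1.39 ± 0.27 in B2 and fell by 1.26 ± 0.27 in B1, and the difference was 2.65 ± 0.39 (adjusted p = 0.0130). Fam13a, a gene tied to lung function in human genetic studies, had 88.5, 82.98 and 81.2 CPM in B2H, against 44.9, 49.3 and 37.8 in B2N. In B1, Fam13a had 66.4, 46.3 and 46.8 CPM in B1H, against 82.1, 83.1 and 76.8 in B1N. Each of these genes had its hypoxia libraries all above normoxia in B2 and all below normoxia in B1. The difference of Fam13a was 1.54 ± 0.20 (adjusted p = 0.00835), that of Fgfr3, a receptor for fibroblast growth factors, 1.01 ± 0.14 (adjusted p = 0.0105), and that of the actin-binding coronin Coro2a 1.39 ± 0.19 (adjusted p = 0.0106). Vstm5, a little expressed membrane protein gene at 0.525 CPM on average in B2H, 1.67 in B2N, 1.83 in B1H and 0.851 in B1N, had the opposite pattern: it fell by 1.65 ± 0.27 in B2 and rose by 1.10 ± 0.26 in B1 (difference -2.75 ± 0.37 (adjusted p = 0.0103)). The other opposite genes were Lpin1, the leptin receptor Lepr and Fkbp14 above 0, and Gpsm2 and Gas7 below 0, with absolute differences between 0.89 and 1.28. In all 12 genes hypoxia and normoxia libraries did not overlap in either line, which their choice by called responses in both lines favours. With each library left out in turn, the call held in 11 of 12 for Lepr, 7 for Fkbp14, 6 for Gpsm2, 7 for Lpin1 and 3 for Gas7 (highest adjusted p 0.0520 to 0.0811, without B1N replicate 1 or B1N replicate 2).

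**Figure D3:**
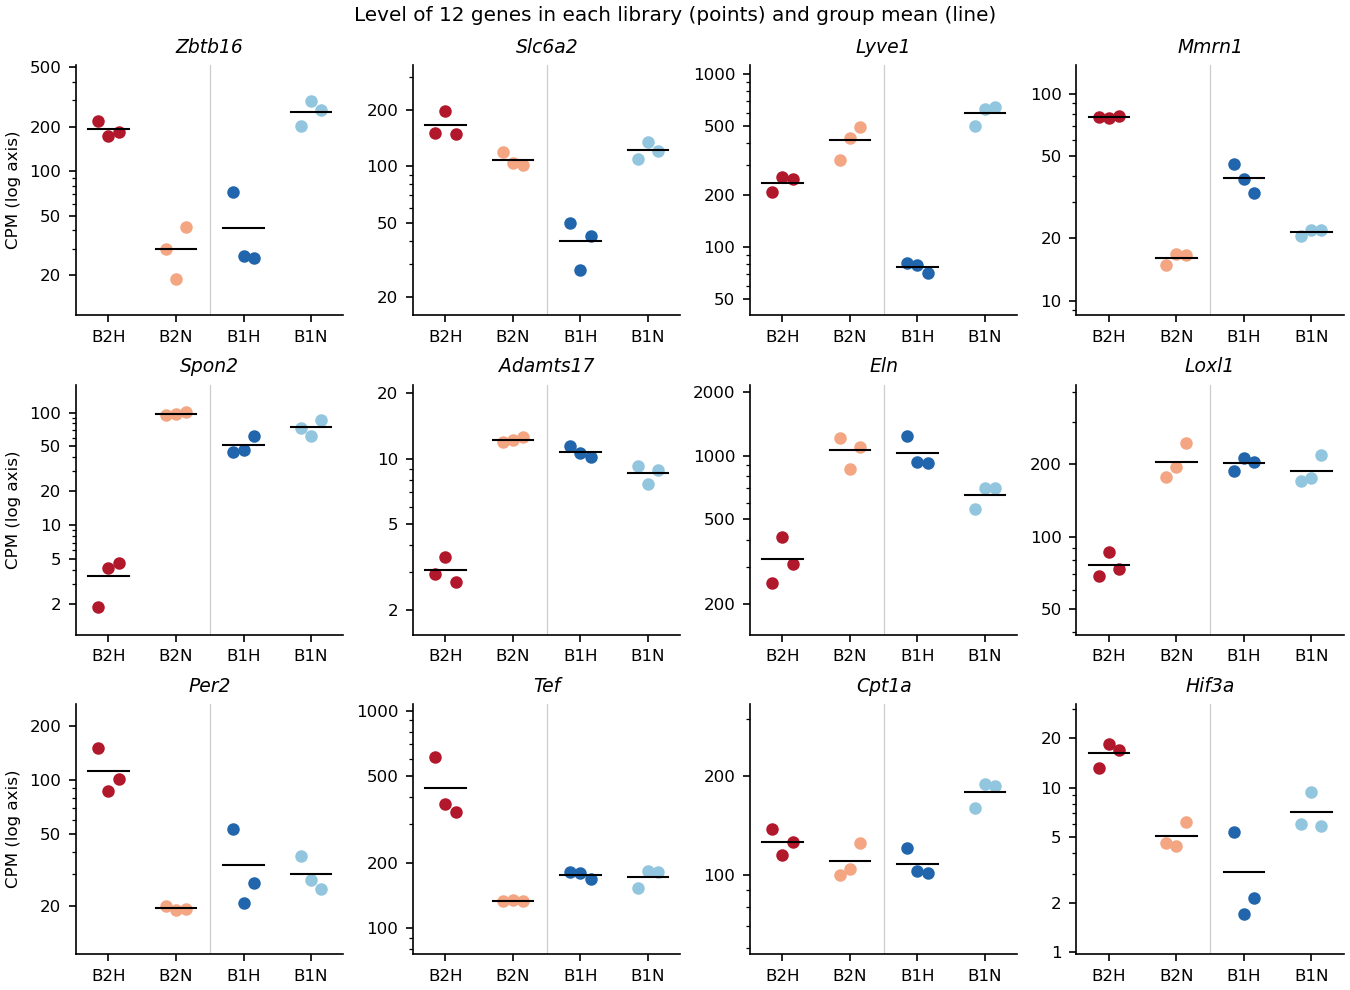
Levels of 12 genes in CPM on a log axis, with a point for each library, a line at each group's mean and the groups in the order B2H, B2N, B1H and B1N. Zbtb16 and Slc6a2 are higher in hypoxia in B2 and lower in B1, Lyve1 is lower and Mmrn1 higher in both lines, and Spon2, Adamts17, Eln and Loxl1 are lower in B2H than in every other group.

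Among the genes with a called difference, 6 had called responses in the same direction in both lines. Of these, Lyve1 and Mmrn1 are on the list of lymphatic endothelial markers, where they were the 2 called of 5 tested. Lyve1, the hyaluronan receptor of lymphatic endothelium, which resident macrophages also carry, had 208, 253 and 247 CPM in B2H, against 321, 426 and 497 in B2N. In B1, Lyve1 had 80.6, 78.6 and 70.9 CPM in B1H, against 502, 633 and 644 in B1N. Its hypoxia libraries were below normoxia in both lines and lowest in B1H. Lyve1 fell by 0.81 ± 0.16 (adjusted p = 0.00638) in B2 and by 2.95 ± 0.17 (adjusted p = 9.80e-06) in B1, a difference of 2.14 ± 0.22 (adjusted p = 0.00378). Mmrn1, the secreted multimerin 1 of endothelium and platelets, had 76.9, 76.2 and 78.3 CPM in B2H, against 14.9, 16.8 and 16.5 in B2N. In B1, Mmrn1 had 45.7, 38.5 and 33.2 CPM in B1H, against 20.6, 22.1 and 22.1 in B1N. It rose by 2.26 ± 0.12 in B2 and 0.86 ± 0.11 in B1, with B2H above B1H in every library and a difference of 1.40 ± 0.16 (adjusted p = 0.00525). Reln, the secreted glycoprotein reelin, which lymphatic endothelium makes, rose by 2.43 ± 0.15 in B2 and 1.02 ± 0.15 in B1 (difference 1.40 ± 0.21 (adjusted p = 0.0137)). The laminin chain gene Lamc3, on the pericyte list, rose by 2.24 ± 0.16 and 0.82 ± 0.16 (1.42 ± 0.22 (adjusted p = 0.0171)), and the sulfate transporter gene Slc13a4 by 2.61 ± 0.21 and 1.01 ± 0.21 (1.60 ± 0.30 (adjusted p = 0.0298)). Ccl22, a chemokine of dendritic cells and macrophages, was the only one of the 6 genes with a difference below 0 and fell by 2.30 ± 0.20 in B2 and 0.83 ± 0.19 in B1 (-1.47 ± 0.27 (adjusted p = 0.0306)). Leave-one-out fits called 11 of 12 for Lamc3, 3 for Slc13a4 and 4 for Ccl22 (highest adjusted p 0.0587 to 0.0828, without B1N replicate 1 or B2H replicate 1). Slc13a4 and Reln are outside the rule for named genes and were chosen after their values were seen.

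The 2 genes with the smallest p for the difference fell in B2 and had no called response in B1. Spon2, a secreted matrix protein also called mindin, had 1.86, 4.196 and 4.62 CPM in B2H, against 95.7, 96.3 and 101 in B2N. In B1, Spon2 had 44.8, 46.4 and 62.4 CPM in B1H, against 73.3, 61.4 and 86.7 in B1N. Its B2H libraries were far below all 9 others. Spon2 fell by 4.77 ± 0.28 (adjusted p = 1.05e-05) in B2, against a log2 change of -0.53 ± 0.24 (adjusted p = 0.285) in B1, and the difference was -4.25 ± 0.36 (adjusted p = 0.000688). Adamts17, a secreted metalloprotease, had 2.95, 3.53 and 2.702 CPM in B2H, against 11.97, 12.1 and 12.5 in B2N. In B1, Adamts17 had 11.4, 10.7 and 10.1 CPM in B1H, against 9.201, 7.602 and 8.83 in B1N. It fell by 1.99 ± 0.14 in B2, against a change of 0.33 ± 0.13 (adjusted p = 0.237) in B1, a difference of -2.32 ± 0.19 (adjusted p = 0.000688). S100a14, a calcium-binding protein of epithelia, fell in B2 by 1.70 ± 0.18 (difference -2.27 ± 0.25 (adjusted p = 0.00445)), and Gyg, glycogenin, the primer of glycogen synthesis, fell by 0.83 ± 0.10 (difference -1.25 ± 0.14 (adjusted p = 0.00525)). Lrrc32, which holds latent TGF-β on the cell surface, had 139, 136 and 158 CPM in B2H, against 59.99, 53.5 and 62.97 in B2N. In B1, Lrrc32 had 101, 84.98 and 91.6 CPM in B1H, against 87.8, 83.2 and 102 in B1N. It rose by 1.29 ± 0.11 in B2 against 0.02 ± 0.11 (adjusted p = 0.934) in B1 (difference 1.27 ± 0.15 (adjusted p = 0.00525)), and was lower in B2N than in B1N by a log2 change of -0.63 ± 0.11 (adjusted p = 0.0191).

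Further large differences came from B2 for some genes and from B1 for others. Myrip, a linker between Rab27 on granules and myosin motors, had 110.4, 121 and 98.8 CPM in B2H, against 24.7, 21.1 and 25.1 in B2N. In B1, Myrip had 43.3, 22.4 and 22.2 CPM in B1H, against 32.6, 57.03 and 61.4 in B1N. Its rise in B2 was 2.22 ± 0.28, and its difference was 2.997 ± 0.39 (adjusted p = 0.00835). The bHLH factor gene Tcf23 rose by 2.03 ± 0.37 in B2 (difference 2.75 ± 0.52 (adjusted p = 0.0307)), and Fam107a, an actin-associated protein that glucocorticoids induce, by 1.70 ± 0.40 (2.61 ± 0.56 (adjusted p = 0.0443)). Doc2b, a calcium sensor of vesicle release, was different in that the B1 response was the one called. It had 4.38, 9.45 and 12.03 CPM in B2H, against 3.15, 5.36 and 4.92 in B2N. In B1, Doc2b had 0.641, 0.611 and 0.2504 CPM in B1H, against 2.05, 3.78 and 1.93 in B1N. Doc2b fell by 2.31 ± 0.49 (adjusted p = 0.0305) in B1 against a change of 0.94 ± 0.39 (adjusted p = 0.109) in B2, and the difference was 3.25 ± 0.62 (adjusted p = 0.0308). Slpi, the secreted inhibitor of leukocyte proteases, likewise changed in B1, where it rose by 2.47 ± 0.49 (adjusted p = 0.0234) against -0.84 ± 0.47 (adjusted p = 0.217) in B2 (difference -3.31 ± 0.67 (adjusted p = 0.0376)). Slpi had 26.4, 58.1 and 44.5 CPM in B2H, against 37.6, 73.1 and 120.0 in B2N. In B1, Slpi had 86.4, 54.6 and 164 CPM in B1H, against 13.3, 23.96 and 18.02 in B1N. In B2, falls were called for Aif1, a macrophage gene also called Iba1 (by 2.21 ± 0.43, difference -2.71 ± 0.60 (adjusted p = 0.0492)), for Rec8, a meiotic cohesin subunit (by 1.56 ± 0.33, difference -2.43 ± 0.47 (adjusted p = 0.0312)), and for Cd72, a membrane protein of B cells (by 1.59 ± 0.29, difference -2.16 ± 0.41 (adjusted p = 0.0308)). Rec8 was also higher in B2N than in B1N, by 2.43 ± 0.34 (adjusted p = 0.00661). Leaving out single libraries, the calls held in 12 of 12 for Myrip, 5 for Tcf23, 2 for Fam107a, 3 for Doc2b, 4 for Slpi, 2 for Aif1, 4 for Rec8 and 3 for Cd72 (highest adjusted p 0.0789 to 0.118, without B1N replicate 1 or B1N replicate 2 or B2N replicate 1).

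Matrix genes were read from a list of 62 tested collagens, elastic fibre proteins, matricellular proteins, proteases and inhibitors. A called difference was below 0 for 7 of the 62 and above 0 for 2 (against 0.708% and 0.892% of all tested genes). Called or not, 16 of the 62 had a difference above 0, and the median difference was -0.36, against -0.05 over all tested genes. By called responses, hypoxia lowered 29 and raised 8 of these genes in B2 (against 9.12% and 9.65% of all tested genes). In B1 it lowered 3 and raised 3 (against 0.951% and 1.76%). Eln, elastin, had 251, 414 and 309.7 CPM in B2H, against 1217, 865 and 1094 in B2N. In B1, Eln had 1233, 935 and 926 CPM in B1H, against 559, 701 and 706 in B1N. B2H libraries were below all others, and B1H libraries were above all B1N libraries. Eln fell by 1.70 ± 0.20 (adjusted p = 0.000764) in B2 against a change of 0.65 ± 0.20 (adjusted p = 0.120) in B1, a difference of -2.36 ± 0.28 (adjusted p = 0.00525). Loxl1, an enzyme that crosslinks elastin, had 68.5, 86.2 and 73.7 CPM in B2H, against 177, 194 and 245 in B2N. In B1, Loxl1 had 187, 213 and 205 CPM in B1H, against 169.7, 176 and 218 in B1N. Loxl1 fell by 1.43 ± 0.14 (adjusted p = 0.000352) in B2 against 0.10 ± 0.14 (adjusted p = 0.739) in B1, a difference of -1.53 ± 0.20 (adjusted p = 0.00835). The microfibril protein gene Mfap5 was the third called gene among 16 of elastic fibres and crosslinking, with a difference of -1.23 ± 0.25 (adjusted p = 0.0376).

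Of 19 collagen chains, 11 had a called fall in B2 and 1 in B1 (against 9.12% and 0.951% of all tested genes), and 2 had a called difference (against 1.6%). Col3a1, the fibrillar collagen of vessel walls and interstitium, had 351, 392 and 304 CPM in B2H, against 1116, 1230.4 and 1418 in B2N. In B1, Col3a1 had 616, 807 and 495 CPM in B1H, against 641, 703 and 881 in B1N. It fell by 1.85 ± 0.19 (adjusted p = 0.000370) in B2 against -0.21 ± 0.18 (adjusted p = 0.578) in B1, a difference of -1.63 ± 0.26 (adjusted p = 0.0191). The other was Col5a3, a minor fibrillar chain, at -1.69 ± 0.31 (adjusted p = 0.0260). Tnc, the matricellular tenascin C, fell by 1.89 ± 0.19 in B2 (difference -1.53 ± 0.26 (adjusted p = 0.0226)), and Timp1, an inhibitor of metalloproteases, by 2.13 ± 0.28 (-1.94 ± 0.38 (adjusted p = 0.0323)). Timp3, an inhibitor bound to the matrix, and Spp1, the secreted phosphoprotein osteopontin, went the other way: Timp3 rose by 1.18 ± 0.15 in B2 (0.95 ± 0.21 (adjusted p = 0.0488)), and Spp1 by 2.004 ± 0.30 (2.09 ± 0.42 (adjusted p = 0.0351)). The Timp3 levels were 2387 ± 342 CPM in B2H, 1053 ± 143 in B2N, 1455 ± 227 in B1H and 1239 ± 43.1 in B1N (mean ± SD, n = 3). With each library left out in turn, calls held in 12 of 12 for Eln, 12 for Loxl1, 8 for Col3a1, 6 for Tnc, 4 for Col5a3, 3 for Mfap5, 3 for Timp1, 3 for Timp3 and 3 for Spp1 (highest adjusted p 0.0681 to 0.121, without B1N replicate 1 or B1N replicate 2 or B2H replicate 2), and 2 to 15 matrix genes were called in all.

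Markers of the cells that make matrix did not move as one. Of 20 fibroblast markers, none of them at 0 in any group, 1 had a called difference above 0 (Tcf21, a fibroblast transcription factor, 0.92 ± 0.17 (adjusted p = 0.0285)) and 1 a called one below 0 (Col3a1). Their summed level was 15486 to 17363 CPM in B2H, 12190 to 15548 in B2N, 14987 to 17234 in B1H and 13382 to 14749 in B1N. Of 15 mesothelial markers, none of them at 0 in any group, 10 had a called fall in B2 (against 9.12% of all tested genes), and 0 were called in B1 (against 2.71%). Slurp1, a secreted Ly6 family protein, alone had a called difference (-3.03 ± 0.52 (adjusted p = 0.0223)), while 12 of the 15 had an unadjusted p under 0.05 for the difference and 8 were called by DESeq2. Of all 15250 genes tested, 3707 had such a p and 1383 were called by DESeq2. Their summed level was 1005 to 1220 CPM in B2H, 1556 to 1999 in B2N, 1406 to 1801 in B1H and 1285 to 1667 in B1N, and their part in the matrix result was not tested.

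Called differences among clock genes were all above 0. The circadian clock is a loop in which CLOCK and BMAL1 switch on Per and Cry genes through E-box sequences and the Per and Cry proteins repress that drive, while PAR-domain factors such as TEF act on output genes through D-box sequences. Of 25 tested clock genes 5 had a called difference (against 1.6% of all tested genes), and the median difference was 0.97. By called responses, 12 of the 25 rose and 1 fell in B2 (against 9.65% and 9.12% of all tested genes). In B1 1 rose and 0 fell (against 1.76% and 0.951%).

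Tef, the PAR-domain output factor, had 611, 373 and 342 CPM in B2H, against 133, 135 and 134 in B2N. In B1, Tef had 181, 179 and 168 CPM in B1H, against 153, 184 and 181 in B1N. B2H libraries were above all others. Tef rose by 1.72 ± 0.18 (adjusted p = 0.000408) in B2 against a change of 0.03 ± 0.18 (adjusted p = 0.961) in B1, a difference of 1.70 ± 0.25 (adjusted p = 0.0137). Per2, a repressor of the loop, had 150.4, 86.9 and 101 CPM in B2H, against 20.1, 18.97 and 19.3 in B2N. In B1, Per2 had 53.9, 20.95 and 26.9 CPM in B1H, against 37.995, 27.96 and 25.1 in B1N. Per2 rose by 2.54 ± 0.33 (adjusted p = 0.000993) in B2 against 0.16 ± 0.31 (adjusted p = 0.824) in B1, a difference of 2.38 ± 0.45 (adjusted p = 0.0307). Its paralog Per3 rose by 2.13 ± 0.28 in B2 (difference 1.95 ± 0.39 (adjusted p = 0.0351)), with 67.9 ± 26.9 CPM in B2H, 15.4 ± 3.18 in B2N, 19.8 ± 5.17 in B1H and 17.4 ± 2.91 in B1N (mean ± SD, n = 3). Cry2, the cryptochrome repressor, had 109.9, 96.3 and 97.6 CPM in B2H, against 72.4, 70.1 and 71.2 in B2N. In B1, Cry2 had 71.5, 54.95 and 59.97 CPM in B1H, against 86.9, 85.4 and 77.4 in B1N. The difference was 0.93 ± 0.14 (adjusted p = 0.0171) for Cry2. Wee1, a clock output gene that holds back mitosis, had a difference of 1.35 ± 0.30 (adjusted p = 0.0475). With each library left out in turn, the call held in 11 of 12 for Tef, 10 for Cry2, 3 for Per2, 4 for Per3 and 2 for Wee1 (highest adjusted p 0.0510 to 0.113, without B1N replicate 1 or B2N replicate 1), and 0 to 6 clock genes were called in all.

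Promoter sequences of the called clock genes are shown because E-box and D-box sequences are what clock factors bind. The RefSeq table of GRCm38.p6 had promoters for Tef, Per3 and Cry2, and for 18 of the clock genes tested. The E-box CACGTG, searched on both strands from 250 bases before to 50 after the start, was in 4 of the 18, in 8.09% of all 27025 genes of the table and in 11.1% of the tested genes matched to it. The D-box TTATGNAA was in 2 of the 18, in 3.99% of all genes and in 2.69% of the tested genes. Tef has 2 starts, with the E-box 127 bases before the one and 138 bases before the other, and Per3 has the D-box 205 and 158 bases before its start, while neither motif was found in the window of Cry2. Each sequence below gives the 250 bases before the start, 5′ to 3′ on the strand of the gene, with the matched motif in capitals.
Tef, first start, chr15:81802423-81802672, plus strand: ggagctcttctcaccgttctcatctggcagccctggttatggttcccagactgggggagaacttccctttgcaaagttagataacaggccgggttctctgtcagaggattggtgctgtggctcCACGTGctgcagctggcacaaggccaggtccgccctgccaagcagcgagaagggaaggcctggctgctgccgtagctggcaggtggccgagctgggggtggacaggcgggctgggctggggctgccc
Tef, other start, chr15:81811164-81811413, plus strand: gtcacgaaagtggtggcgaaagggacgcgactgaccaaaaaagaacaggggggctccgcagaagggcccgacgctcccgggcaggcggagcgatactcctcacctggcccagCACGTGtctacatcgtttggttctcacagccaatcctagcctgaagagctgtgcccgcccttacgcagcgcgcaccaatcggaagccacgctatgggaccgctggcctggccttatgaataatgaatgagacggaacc
Per3, chr4:151044666-151044915, minus strand: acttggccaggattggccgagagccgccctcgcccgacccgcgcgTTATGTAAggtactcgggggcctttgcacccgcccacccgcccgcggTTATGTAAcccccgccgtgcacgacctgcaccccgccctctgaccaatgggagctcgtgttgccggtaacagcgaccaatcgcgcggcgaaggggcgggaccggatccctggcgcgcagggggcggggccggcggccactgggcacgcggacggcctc
A match is a description of these letters and not of a bound site.

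Among genes that glucocorticoids and fasting induce, every called difference was above 0. Of 29 tested, 4 had a called difference (against 1.6% of all tested genes), and the median difference was 0.49. By called responses, 7 fell and 2 rose in B1 (against 0.951% and 1.76% of all tested genes), with a median response of -0.73. In B2 1 fell and 4 rose (against 9.12% and 9.65%), with a median of 0.10. All 17 genes of the fasting and lipid oxidation part had a difference above 0, of which 2 were called. Cpt1a, which carries fatty acids into mitochondria, had 138, 115 and 126 CPM in B2H, against 100.2, 104 and 125 in B2N. In B1, Cpt1a had 121, 103 and 102 CPM in B1H, against 160.0, 189.9 and 187 in B1N. Cpt1a fell by 0.73 ± 0.12 (adjusted p = 0.00987) in B1 against a change of 0.20 ± 0.12 (adjusted p = 0.240) in B2, a difference of 0.92 ± 0.16 (adjusted p = 0.0251); it was lower in B2N than in B1N by a log2 change of -0.70 ± 0.12 (adjusted p = 0.0162). Lpin1, a phosphatidate phosphatase that also coactivates fatty acid oxidation genes, had 79.6, 63.9 and 66.2 CPM in B2H, against 55.1, 45.5 and 45.1 in B2N. In B1, Lpin1 had 47.6, 49.7 and 35.995 CPM in B1H, against 69.2, 75.4 and 61.3 in B1N. It rose by 0.53 ± 0.14 in B2 and fell by 0.63 ± 0.14 in B1, a difference of 1.15 ± 0.20 (adjusted p = 0.0236). Fkbp5, a cochaperone of the glucocorticoid receptor and itself a target of it, had 165, 151 and 159.5 CPM in B2H, against 67.9, 66.9 and 95.1 in B2N. In B1, Fkbp5 had 72.7, 23.05 and 32.2 CPM in B1H, against 87.7, 152 and 106 in B1N. Neither response of Fkbp5 was called (1.05 ± 0.35 (adjusted p = 0.0566) in B2, -1.43 ± 0.35 (adjusted p = 0.0576) in B1), and the difference was 2.48 ± 0.50 (adjusted p = 0.0351). Zbtb16, described above, was the other called member. Among leave-one-out fits the call held in 12 of 12 for Zbtb16, 7 for Lpin1, 6 for Cpt1a and 3 for Fkbp5 (highest adjusted p 0.0789 to 0.0977, without B1N replicate 1 or B2N replicate 1), and 1 to 9 genes of the list were called. Of 18 adipocyte markers 16 were tested, while Elovl3 was at 0 in all 12 libraries and Ucp1 in a group. Pnpla2, the lipase of stored fat, had a called difference (0.76 ± 0.16 (adjusted p = 0.0392)), and 14 of the 16 had a difference above 0, with a median of 0.50 and of 1.27 without B1H replicate 2 and B2N replicate 0. Their score was 0.58 to 1.10 in B2H, -0.54 to 1.18 in B2N, -1.70 to 0.55 in B1H and -0.79 to 0.43 in B1N. The tested markers summed to 834 to 903 CPM in B2H, 592 to 971 in B2N, 603 to 731 in B1H and 596 to 830 in B1N, and their part in this result was not tested.

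The oxygen response itself differed in 4 of 41 tested genes of HIF subunits, oxygen sensors, HIF targets and glycolysis, against 1.6% of all tested genes. All 4 had a difference above 0. The list median was 0.06, and 0.13 without B1H replicate 2 and B2N replicate 0. Hif3a, a HIF subunit with isoforms that restrain the others, had 13.3, 18.4 and 16.95 CPM in B2H, against 4.62, 4.41 and 6.22 in B2N. In B1, Hif3a had 5.36, 1.702 and 2.13 CPM in B1H, against 5.997, 9.44 and 5.83 in B1N. It rose by 1.67 ± 0.36 (adjusted p = 0.0103) in B2 against a change of -1.20 ± 0.37 (adjusted p = 0.127) in B1, a difference of 2.87 ± 0.52 (adjusted p = 0.0260). Epas1, HIF-2α, the abundant HIF subunit of lung endothelium, had 4577, 4882 and 5203 CPM in B2H, against 3299, 3271 and 3403 in B2N. In B1, Epas1 had 3767, 3382 and 3763 CPM in B1H, against 4015, 3949.6 and 4149.9 in B1N. Epas1 rose by 0.56 ± 0.11 (adjusted p = 0.00593) in B2 against -0.15 ± 0.11 (adjusted p = 0.488) in B1, a difference of 0.71 ± 0.15 (adjusted p = 0.0402). Kdm3a, a histone demethylase that HIF induces, rose by 0.41 ± 0.10 in B2 (difference 0.70 ± 0.14 (adjusted p = 0.0325)). Pfkfb3, a regulator of glycolysis and also a HIF target, was called in B1 instead. It fell by 0.90 ± 0.17 (adjusted p = 0.0202) there against a change of 0.39 ± 0.17 (adjusted p = 0.132) in B2, a difference of 1.29 ± 0.24 (adjusted p = 0.0308). Pfkfb3 had 184, 153 and 130.3 CPM in B2H, against 103, 113 and 141 in B2N. In B1, Pfkfb3 had 98.7, 79.002 and 63.7 CPM in B1H, against 148, 162 and 142 in B1N. Leaving out 1 library at a time, the call held in 5 of 12 for Hif3a, 3 for Pfkfb3, 2 for Kdm3a and 2 for Epas1 (highest adjusted p 0.0789 to 0.118, without B1N replicate 1 or B1N replicate 2), and 0 to 7 genes of the list were called. Over the 17 glycolysis genes the median difference was -0.16 and Pfkfb3 was the only call. The core hypoxia motif ACGTG was in 24 of 37 matched promoters of the list, beside 21.8% of all genes and 28.1% of tested ones; of the 3 called genes matched it was in that of Pfkfb3 and not in those of Hif3a and Kdm3a, and Epas1 was not matched.

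**Figure D4:**
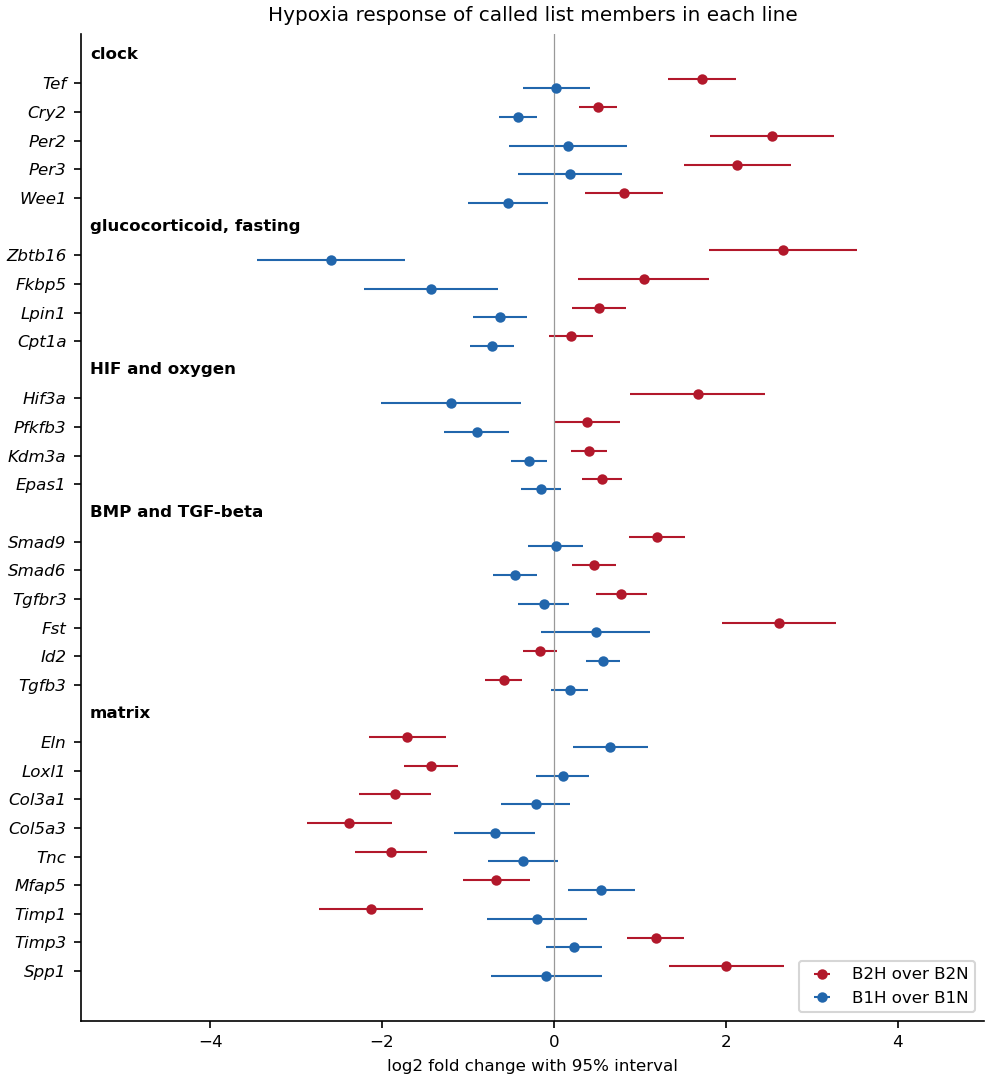
Log2 fold changes of B2H over B2N (red) and B1H over B1N (blue), with unadjusted 95% intervals, of the 28 members of 5 lists with a called difference. The B2 point lies to the right of the B1 point for all clock, glucocorticoid and fasting, and HIF members, and to the left of it for 7 matrix members and, in the BMP and TGF-β list, for Id2 and Tgfb3.

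BMP and TGF-β signals, whose balance governs the growth of pulmonary vessel walls, held called differences among receptors, intracellular SMAD proteins, inhibitors, targets and ligands. Of 46 tested genes 4 had a called difference above 0 and 2 a called one below 0, against 0.892% and 0.708% of all tested genes. The list median was 0.17, and 0.01 without B1H replicate 2 and B2N replicate 0. Smad9, a transducer of BMP signals, had 22.3, 18.7 and 22.8 CPM in B2H, against 9.71, 8.72 and 9.28 in B2N. In B1, Smad9 had 18.4, 16.5 and 14.3 CPM in B1H, against 14.3, 14.8 and 19.5 in B1N. It rose by 1.20 ± 0.15 (adjusted p = 0.000849) in B2 against 0.02 ± 0.14 (adjusted p = 0.963) in B1, a difference of 1.18 ± 0.21 (adjusted p = 0.0234). Smad6, which inhibits BMP signalling, had 359, 312 and 361 CPM in B2H, against 215, 253 and 277 in B2N. In B1, Smad6 had 316, 312 and 307 CPM in B1H, against 419.7, 377 and 482 in B1N. The difference for Smad6 was 0.92 ± 0.17 (adjusted p = 0.0259). Both SMAD genes were lower in B2N than in B1N, by log2 changes of -0.81 ± 0.15 (adjusted p = 0.0253) and -0.78 ± 0.12 (adjusted p = 0.0104). The coreceptor gene Tgfbr3, betaglycan, had a difference of 0.90 ± 0.19 (adjusted p = 0.0408), and all 11 receptors of the list had a difference above 0, with 1 called. Fst, follistatin, which binds activins, rose by 2.62 ± 0.30 in B2 (2.13 ± 0.41 (adjusted p = 0.0312)). Id2, an inhibitor of bHLH factors and a BMP target, had 55.7, 49.02 and 53.8 CPM in B2H, against 59.1, 61.5 and 57.2 in B2N. In B1, Id2 had 78.7, 78.5 and 81.5 CPM in B1H, against 50.5, 50.1 and 60.4 in B1N. Id2 rose by 0.57 ± 0.09 (adjusted p = 0.00941) in B1 against a change of -0.17 ± 0.09 (adjusted p = 0.208) in B2, a difference of -0.73 ± 0.13 (adjusted p = 0.0231). The ligand gene Tgfb3 fell by 0.58 ± 0.10 in B2 (-0.76 ± 0.14 (adjusted p = 0.0281)). With single libraries left out, calls held in 6 of 12 for Smad9, 5 for Smad6, 7 for Id2, 3 for Tgfb3, 4 for Fst and 2 for Tgfbr3 (highest adjusted p 0.0634 to 0.108, without B1N replicate 1 or B1N replicate 2 or B2N replicate 1), and 0 to 8 genes of the list were called.

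Vessel genes gave called differences in both directions. Of 46 endothelial genes 3 had a called difference above 0 (Lyve1, Mmrn1 and Slc6a2, described above) and 2 a called one below 0, against 0.892% and 0.708% of all tested genes. None of the 20 pan-endothelial markers among the 46 was called. The endothelial genes summed to 15177 to 15336 CPM in B2H, 12433 to 15531 in B2N, 16182 to 17053 in B1H and 15228 to 17043 in B1N, and Ccl21a, which was not tested, was at 0 in all 12 libraries. Gja5, connexin 40 of arterial endothelium, had 47.6, 43.96 and 43.6 CPM in B2H, against 90.2, 101 and 93.5 in B2N. In B1, Gja5 had 80.2, 109 and 105 CPM in B1H, against 91.4, 64.9 and 82.9 in B1N. It fell by 1.08 ± 0.14 (adjusted p = 0.000993) in B2, against a change of 0.30 ± 0.14 (adjusted p = 0.302) in B1, and the difference was -1.37 ± 0.20 (adjusted p = 0.0113). Aplnr, the apelin receptor, had 66.4, 75.5 and 72.7 CPM in B2H, against 67.2, 94.95 and 105 in B2N. In B1, Aplnr had 108, 96.9 and 148 CPM in B1H, against 48.7, 39.9 and 61.8 in B1N. It rose by 1.23 ± 0.21 (adjusted p = 0.0115) in B1 against a change of -0.32 ± 0.20 (adjusted p = 0.284) in B2, a difference of -1.54 ± 0.29 (adjusted p = 0.0304).

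Of 44 genes of vessel tone, most of them receptors or enzymes upstream of them, 1 had a called difference above 0 and 3 a called one below 0, Aplnr included (against 0.892% and 0.708% of all tested genes). Agtr1a, the angiotensin II receptor, had 32.9, 39.2 and 38.2 CPM in B2H, against 17.4, 19.6 and 19.4 in B2N. In B1, Agtr1a had 26.4, 20.8 and 22.5 CPM in B1H, against 20.4, 23.4 and 21.8 in B1N. It rose by 0.97 ± 0.12 (adjusted p = 0.000826) in B2 against 0.09 ± 0.12 (adjusted p = 0.730) in B1, a difference of 0.88 ± 0.17 (adjusted p = 0.0307). Tbxa2r, the thromboxane receptor, fell by 0.96 ± 0.16 in B2 (-1.36 ± 0.23 (adjusted p = 0.0223)), and Nos2, inducible nitric oxide synthase, rose by 1.53 ± 0.29 in B1 (-1.98 ± 0.40 (adjusted p = 0.0376)). The endothelin, adrenomedullin, serotonin and adrenergic parts of the list, 20 genes, held no called difference. Over the whole list 18 genes had an unadjusted p under 0.05 and 9 were called by DESeq2. Of 22 arrestin, receptor kinase and RGS genes 0 were called by edgeR, 9 had an unadjusted p under 0.05, and 5 were called by DESeq2 and 6 by limma-voom. For all 15250 genes these counts were 3707 at an unadjusted p under 0.05, 1383 by DESeq2 and 1540 by limma-voom. Of 47 Wnt and Notch genes 2 Notch ligands had a called difference above 0, Jag1 (0.69 ± 0.13 (adjusted p = 0.0316)) and Dll1 (0.85 ± 0.18 (adjusted p = 0.0400)). Sfrp2, a secreted Wnt inhibitor, had a called difference below 0 (-1.93 ± 0.40 (adjusted p = 0.0376)). The call held, with each library left out in turn, in 12 of 12 for Gja5, 5 for Aplnr, 4 for Agtr1a, 6 for Tbxa2r, 2 for Nos2, 2 for Jag1, 2 for Dll1 and 2 for Sfrp2 (highest adjusted p 0.0789 to 0.108, without B1N replicate 1 or B1N replicate 2 or B2N replicate 1).

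Called differences among cytokines and chemokines were below 0. Of 38 cytokines, chemokines and adhesion molecules 2 had a called difference below 0 and 0 a called one above (against 0.708% and 0.892% of all tested genes). The median difference was -0.69. The gene listed as Il8, an older symbol of Cxcl15, the chemokine lungkine of lung epithelium, had 384, 484 and 552 CPM in B2H, against 1149, 1461 and 1542 in B2N. In B1, Il8 had 1306, 1327 and 1602 CPM in B1H, against 1338, 1556 and 1487 in B1N. B2H libraries were below all others. It fell by 1.55 ± 0.16 (adjusted p = 0.000371) in B2 against -0.05 ± 0.16 (adjusted p = 0.900) in B1, a difference of -1.50 ± 0.22 (adjusted p = 0.0137). It was also the only call among 17 alveolar type 2 genes, whose median was -0.25. Ccl22, described above, was the other. Cxcl10, an interferon-induced chemokine, fell by 2.54 ± 0.42 in B2 (-2.84 ± 0.59 (adjusted p = 0.0384)) and was the only call among 45 interferon-stimulated genes, against 1.6% of all tested genes. A fall in B2 was called for 11 of the 45 (against 9.12%), and 0 had a called response in B1 (against 2.71%).

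Markers of resident macrophages had calls in both directions. Of 19 interstitial and cavity macrophage markers, 2 had a called difference below 0 and Lyve1 a called one above, with a list median of -0.96. The shares over all tested genes were 0.708% and 0.892%. Cx3cr1, the fractalkine receptor, had 4.29, 6.24 and 3.97 CPM in B2H, against 9.29, 9.46 and 13.1 in B2N. In B1, Cx3cr1 had 16.8, 16.1 and 13.6 CPM in B1H, against 8.79, 11.2 and 10.3 in B1N. The difference of Cx3cr1 was -1.75 ± 0.28 (adjusted p = 0.0191). C1qc, a chain of complement C1q, had 21.4, 30.3 and 24.7 CPM in B2H, against 51.5, 41.3 and 52.96 in B2N. In B1, C1qc had 38.1, 34.2 and 48.7 CPM in B1H, against 30.1, 33.8 and 38.8 in B1N. Its difference was -1.17 ± 0.24 (adjusted p = 0.0384). By called responses, 8 of the 19 fell and 1 rose in B2 (against 9.12% and 9.65% of all tested genes). In B1 1 fell, Lyve1, and 0 rose (against 0.951% and 1.76%). The response was above 0 for 2 of the 19 in B2 (median -0.77) and for 13 in B1 (median 0.20). The 19 summed to 1005 to 1269 CPM in B2H, 1305 to 1685 in B2N, 960 to 1154 in B1H and 1275 to 1570 in B1N, and none was at 0 in any group. Without Lyve1 the other 18 summed to 797.0 to 1016 CPM in B2H, 961 to 1188 in B2N, 882 to 1084 in B1H and 773 to 929 in B1N. H2-Ob, a class II chain of B cells, had 3.94, 2.78 and 3.01 CPM in B2H, against 11.7, 8.51 and 10.1 in B2N. In B1, H2-Ob had 11.4, 22.4 and 19.5 CPM in B1H, against 10.9, 11.98 and 9.73 in B1N. Its difference of -2.34 ± 0.34 (adjusted p = 0.0119) was the only call among 26 B and plasma cell genes, whose median was -0.98. Fscn1, the actin bundler of mature dendritic cells, had a difference of -0.91 ± 0.19 (adjusted p = 0.0402). When 1 library was left out, the calls held in 10 of 12 for Il8, 4 for Ccl22, 4 for Cxcl10, 8 for Cx3cr1, 3 for C1qc, 12 for H2-Ob and 2 for Fscn1 (highest adjusted p 0.0558 to 0.115, without B1N replicate 1 or B1N replicate 2 or B2H replicate 2 or B2N replicate 1).

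Single calls stood in a few other lists. Tfrc, the transferrin receptor of iron uptake, had 103, 122 and 126 CPM in B2H, against 99.6, 104 and 92.5 in B2N. In B1, Tfrc had 124, 138 and 125 CPM in B1H, against 72.9, 64.2 and 65.99 in B1N. It rose by 0.93 ± 0.10 (adjusted p = 0.00116) in B1 against a change of 0.25 ± 0.10 (adjusted p = 0.0916) in B2, a difference of -0.69 ± 0.13 (adjusted p = 0.0316), the only call among 17 haem and iron genes. Me1, malic enzyme, which supplies NADPH to fatty acid synthesis, fell by 0.72 ± 0.11 in B2 (-0.73 ± 0.16 (adjusted p = 0.0420)) and was the only call among 34 sterol and fatty acid genes. With each library left out in turn, calls held in 2 of 12 for Tfrc and 2 for Me1 (highest adjusted p 0.108 to 0.116, without B1N replicate 1 or B1N replicate 2). In all, 52 of the 1000 list members tested had a called difference, beside 1.6% of all genes, 2 genes listed under a pair of symbols being counted once. The lists were chosen with earlier results of these data known, which favours a higher share among their members. At least 1 call was held by 21 of the 40 lists. The other 19 lists, with 414 members, held 0 by edgeR. Of these members 92 had an unadjusted p under 0.05, 29 were called by DESeq2, 32 by limma-voom and 0 by limma on log2(FPKM + 1). Among all 15250 genes, 3707 had an unadjusted p under 0.05, DESeq2 called 1383 and limma-voom 1540. Limma on log2(FPKM + 1) called 244 of 13464. The 19 lists were set apart by their 0 calls on these same libraries, which favours low counts by the other tools, so no conclusion is drawn from these counts. Among these 19 were mitochondrial complex I, with a median difference of -0.72 and 16 of 36 members at an unadjusted p under 0.05, and the cell cycle, with -0.48 and 8 of 28. The complex I score was -0.23 to -0.01 in B2H and -0.17 to -0.04 in B1N. It was 0.45 in B2N replicate 0 and 0.09 and 0.10 in the rest of B2N, and 0.56 in B1H replicate 2 and -0.45 and -0.07 in the rest of B1H. Without these 2 libraries the median difference of complex I was -0.14.

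**Figure D5:**
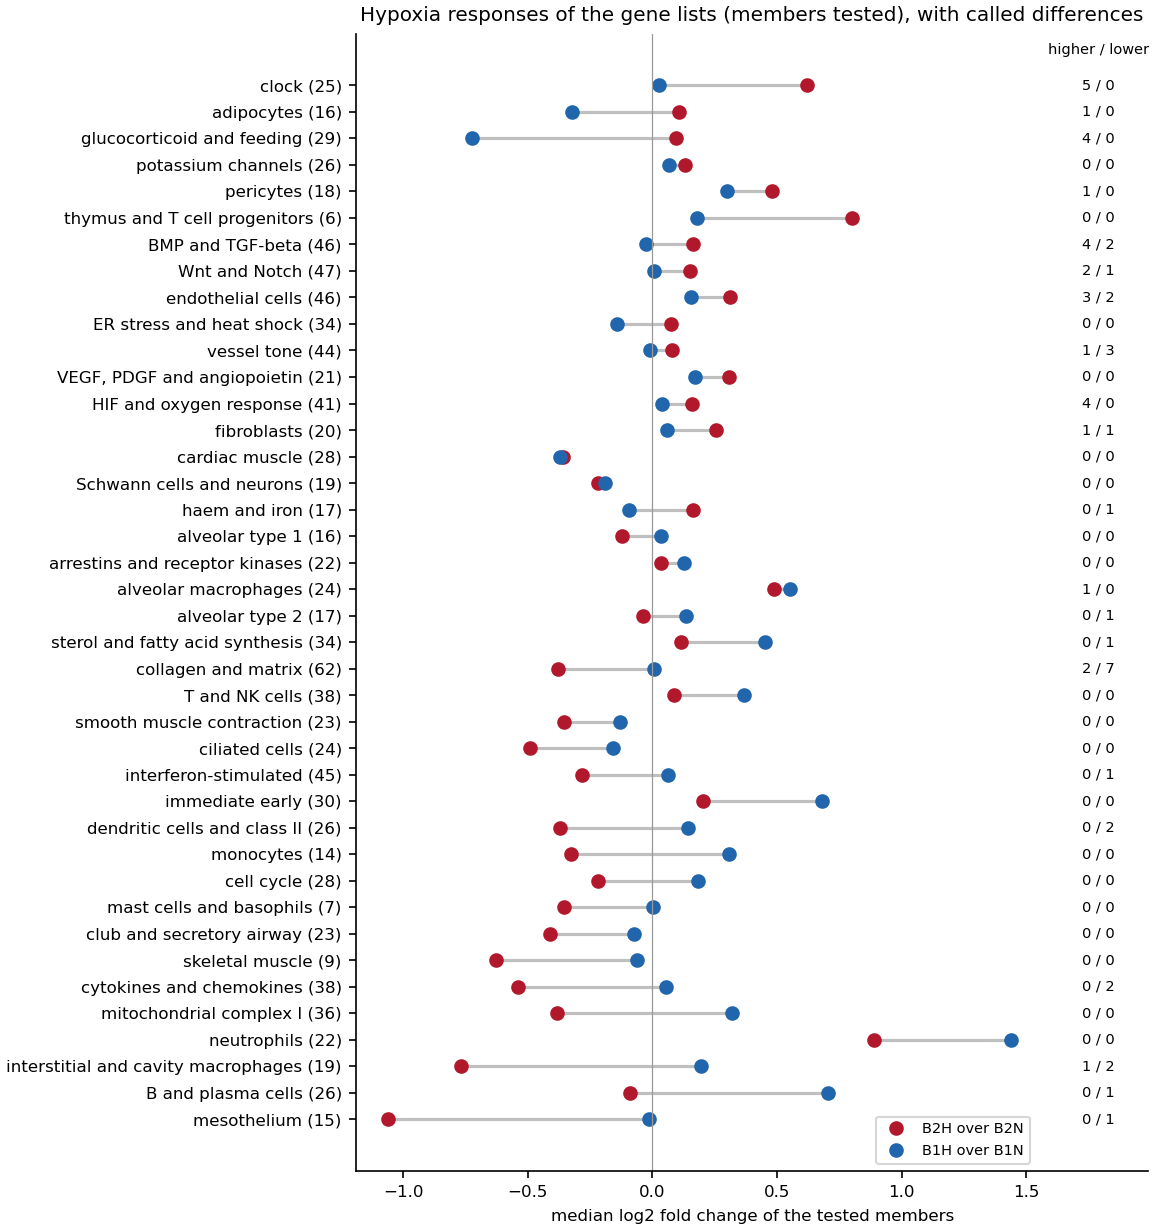
Median log2 fold change of the tested members of each of 40 lists, for B2H over B2N and B1H over B1N, with the number of members whose difference was called higher and lower at the right. Clock genes have the highest median difference and mesothelial genes the lowest, and the neutrophil list is above 0 in both lines.

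Some strong hypoxia responses were shared. Slc26a10, an SLC26 family anion transporter gene, rose by 3.23 ± 0.17 in B2 and 3.49 ± 0.17 in B1, and its difference of -0.26 ± 0.24 had a 95% interval of -0.77 to 0.26 (adjusted p = 0.497). Slc26a10 had 14.996, 15.5 and 11.8 CPM in B2H, against 1.84, 1.31 and 1.37 in B2N. In B1, Slc26a10 had 22.3, 23.7 and 19.6 CPM in B1H, against 1.81, 2.03 and 2.02 in B1N. Ntrk2, the receptor for brain-derived neurotrophic factor, rose by 4.04 ± 0.55 in B2 and 3.50 ± 0.53 in B1, with a wider interval for the difference of -0.99 to 2.07 (adjusted p = 0.636). Plvap, the protein of fenestral diaphragms, had 102, 157 and 159 CPM in B2H, against 924, 977 and 1249 in B2N. In B1, Plvap had 109.5, 167 and 199.9 CPM in B1H, against 680.0, 863 and 931 in B1N. It fell by 2.91 ± 0.25 in B2 and 2.38 ± 0.25 in B1, with an interval of -1.26 to 0.19 (adjusted p = 0.320). Nr4a3, an orphan nuclear receptor, fell by 2.53 ± 0.50 in B2 and 2.68 ± 0.49 in B1, with an interval of -1.38 to 1.68 (adjusted p = 0.906).

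S100a8, a calcium-binding protein of neutrophils, rose by 2.06 ± 0.55 in B2 and 3.21 ± 0.57 in B1, and the interval of its difference ran from -2.81 to 0.52 (adjusted p = 0.351). Of 22 neutrophil markers 8 rose and 1 fell in B2 (against 9.65% and 9.12% of all tested genes), 10 rose and 0 fell in B1 (against 1.76% and 0.951%), and 0 had a called difference (against 1.6%). For the difference, 4 were at an unadjusted p under 0.05 and 2 were called by DESeq2, beside 3707 and 1383 of all 15250 genes. These markers summed to 665 to 976 CPM in B2H, 395 to 521 in B2N, 753 to 1184 in B1H and 326 to 437 in B1N, and 7 markers not tested, Elane and Mpo among them, were at 0 in at least 1 group. Olfm2, an olfactomedin, fell by 3.34 ± 0.38 in B2 and 2.04 ± 0.35 in B1, with an interval of -2.40 to -0.20 that does not hold 0 before adjustment (adjusted p = 0.154). These intervals still allow differences as large as some of those called, so the responses are not shown to be alike.

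In the authors' deposited table, which tests each line's hypoxia against its normoxia with Cuffdiff, 2624 tested genes had a q at or under 0.05 in B2 and 1112 in B1. Of these, 1787 and 346 were also called here. Among the 244 genes with a called difference, the authors' deposited table had 179 at that q in B2 and 71 in B1.

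The kit used does not mark strand, so fragments of a gene and of an antisense partner cannot be told apart. Exons of several genes named above overlap a gene on the other strand in GENCODE vM21. The partner is a named gene for Gja5 (Gpr89), Slc26a10 (B4galnt1), Slurp1 (Them6), Cd72 (Tesk1), Fkbp14 (Plekha8), Gas7 (Glp2r), Gpsm2 (Clcc1), Irf5 (Tnpo3) and Syn2 (Timp4), and an unnamed model for others, Eln, Tef, Cry2, Fam13a, Fgfr3, Coro2a, Cx3cr1, Lamc3 and Doc2b among them.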

How the data were processed

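Each library's fragments per gene were deposited as unnormalized estimated counts, and the submitters' processing notes name FastQC, TopHat, Cuffdiff and mm10. Tool versions and the gene annotation: not given in the sources used here. FPKM values, scaled by the authors, and their deposited table of Cuffdiff q-values were also used. Of 23356 features, 5 marked HIDATA were dropped and 16 marked FAIL in some library stayed in.

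Estimated counts of the 12 libraries were rounded, and edgeR 4.0.16 (R 4.3.3) was run on them (TMM, filterByExpr, group means, quasi-likelihood F-tests, Benjamini-Hochberg adjustment over 15250 genes). CPM were scaled by TMM. Alternatives used all 18 libraries, DESeq2 1.42.0, its size factors, no filter, limma 3.58.1 (voom with library weights, or log2 FPKM with pseudocounts of 1 and 0.1), a replicate block, removal of the haemoglobin genes, and leave-one-out fits over the libraries. The fits with a tissue score or without the 2 smallest libraries, and the alternatives for the differences between lines, were chosen after seeing the data. The fits were tested on simulated counts.

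The comparison, the 40 gene lists (1060 of 1066 genes found) and the rule for named genes were chosen with earlier results of these data known. The rule names both arrestin genes, the 10 highest and 10 lowest called differences at a mean log2 CPM of at least 1 outside unnamed models, the 10 smallest p, up to 4 called members of each list, up to 6 opposite genes and 6 shared responses. Genes named beyond it (Reln, Slc13a4, the rest of the opposite genes, further called list members and those called in every leave-one-out fit) were chosen after their values were seen. Coordinates are those deposited, on mm10, with 1 added to the start. Figures were drawn with matplotlib 3.10.9.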

Additional observations from a re-analysis of the deposited data

Results flagged for a closer look

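The hypoxia response differed between B2 and B1, by a test of the difference itself, for 244 genes. In 12 of these both responses were called and ran in opposite directions: the log2 difference, B2 response minus B1 response, was 5.25 for Zbtb16, 2.22 for Slc6a2, 1.54 for Fam13a, -2.75 for Vstm5, 1.01 for Fgfr3, 1.39 for Coro2a, 2.65 for Map3k6, 1.02 for Lepr, 1.28 for Fkbp14, -0.89 for Gpsm2, 1.15 for Lpin1 and -0.91 for Gas7. Hypoxia and normoxia libraries did not overlap in either line for any of the 12, which is no further evidence, since the 12 were chosen by called responses on these libraries. Of these genes, 7 were called in every leave-one-out fit, namely Zbtb16, Slc6a2, Fam13a, Vstm5, Fgfr3, Coro2a and Map3k6.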

How the results depend on the processing

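No named gene reversed the sign of a called difference under any alternative run. The 244 called differences became 367 with all 18 libraries in the fit, 1383 with DESeq2, 121 with the replicate block, 1540 with limma-voom and library weights, 514 with the 2 libraries of lowest total left out, and 374 with the tissue score as covariate, and ran from 28 to 1277 with each library left out. The 2862 calls in B2 became 6356 with limma-voom and 4510 without the 2 libraries, and ran from 1333 to 5539 with each library left out. The 414 calls in B1 became 938 with DESeq2, 832 with limma-voom and 681 without the 2 libraries, and ran from 86 to 502. The 492 differences between lines in hypoxia became 1075 with DESeq2, 887 with limma-voom and 221 with the tissue score, and ran from 168 to 670 with each library left out. The 197 in normoxia became 840 with DESeq2, 119 with the replicate block, 3382 with limma-voom and 718 without the 2 libraries, and ran from 42 to 1854. The cause was not tested.

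Replicate numbers did not pair the libraries: deviations from the group means of libraries with the same number correlated from -0.471 to 0.483. Under the block 106 of the 244 remained called. Of 71 named genes 63 had a called difference. Of these 63, the call was lost for 23 with the block, 11 with all 18 libraries, 16 with limma on FPKM without a minimum, 5 without the 2 libraries and 0 with the tissue score. Of the 244 genes, 212 were also called without the 2 libraries and 231 with the tissue score. With 3 libraries a group and a median SE of 0.235 for the difference, the lowest absolute difference called was 0.48.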

Other observations

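Other called genes, chosen here after their values were seen and given with no test beyond that of each gene, include guidance molecules first known from the nervous system. Sema7a, a membrane-bound semaphorin, had 564, 672 and 643 CPM in B2H, against 218, 234 and 271 in B2N. In B1, Sema7a had 518, 320.5 and 321 CPM in B1H, against 428, 533 and 421 in B1N. Its rise in B2 was 1.38 ± 0.19, with a difference of 1.63 ± 0.26 (adjusted p = 0.0191). Plxna2, a semaphorin receptor, rose by 1.23 ± 0.24 in B2 (difference 1.98 ± 0.34 (adjusted p = 0.0223)). Dpysl5, a collapsin response mediator, fell by 1.69 ± 0.22 in B1, against a change of 0.25 ± 0.21 in B2 (difference 1.94 ± 0.30 (adjusted p = 0.0171)). Leave-one-out fits called 9 of 12 for Sema7a, 7 for Plxna2 and 10 for Dpysl5 (highest adjusted p 0.0601 to 0.0708, without B1N replicate 1 or B2N replicate 1).

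Enzymes of oxidant chemistry and a transporter were also called. Xdh, xanthine oxidoreductase, had 681, 659 and 565 CPM in B2H, against 205, 199 and 226 in B2N. In B1, Xdh had 481, 289.7 and 263 CPM in B1H, against 407, 450.0 and 433 in B1N. Nox4, an NADPH oxidase, rose by 1.25 ± 0.13 in B2 (difference 1.12 ± 0.18 (adjusted p = 0.0191)). The difference of Xdh was 1.92 ± 0.27 (adjusted p = 0.0106). Abcg2, an efflux transporter, rose by 1.41 ± 0.13 in B2 (difference 1.03 ± 0.18 (adjusted p = 0.0259)), and Itgb6, the integrin subunit of epithelium that frees TGF-β, fell by 1.57 ± 0.22 (-1.73 ± 0.31 (adjusted p = 0.0259)). The calls held in 12 of 12 for Xdh, 9 for Nox4, 4 for Abcg2 and 5 for Itgb6 (highest adjusted p 0.0627 to 0.0828, without B1N replicate 1).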
